A study of Mus musculus with 15 samples.

Results

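The 8 genes for the constant region of the mouse immunoglobulin heavy chain, Ighm, Ighd, Ighg3, Ighg1, Ighg2b, Ighg2c, Ighe and Igha, were followed across cultured B cells and the plasma cells derived from them. The rule that picked them used gene symbols and no measured value, and gave 8 of the 51912 genes in the deposited table, and all 8 passed the filter on low counts.

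The study sequenced RNA from wild-type mouse B cells in 5 groups, each with 3 biological replicates (15 libraries). Cells of all groups had first been cultured on 40LB cells, a fibroblast feeder line that stimulates B cells, together with 100 ng/ml of IL-4 for 6 days. The group D6 is the unsorted culture at that point. The other 4 groups were taken off the feeder cells, kept 2 days without stimulation and sorted by isotype and stage at day 8, into IgE PC, IgG1 PC, IgE iGC and IgG1 iGC, where PC are plasma cells and iGC is the labels' name for the subset that had not become plasma cells. Because the sort itself used the isotype, a difference in Ighe or Ighg1 between IgE and IgG1 groups is what was selected and serves as a check of the labels. The labels do not say whether replicates came from separate mice or cultures, so p-values measure only the spread between these samples.

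The constant gene joined to the rearranged variable exon sets the class of an antibody. A naive B cell makes IgM and IgD from a single primary transcript, by choosing between the Ighm and Ighd exons. Class switch recombination joins a switch region upstream of Ighm to one upstream of a later gene, which deletes Ighm, Ighd and any gene between from that allele, and IL-4 steers it towards Ighg1 and Ighe. Each unswitched gene can also give a non-coding germline transcript before it is recombined, and a gene-level count does not tell such transcripts from those that encode antibody. Every constant gene has a secreted form, ended at an early polyadenylation site, and a membrane form, spliced to further exons that anchor the B cell receptor; plasma cells favour the secreted form.

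The 8 genes lie on chromosome 12 of GRCm38, between positions 113254830 and 113422730, all on the minus strand. In the direction of transcription the order is Ighm, Ighd, Ighg3, Ighg1, Ighg2b, Ighg2c, Ighe and Igha. Ighm (ENSMUSG00000076617) occupies positions 113418558 to 113422730 and Ighd (ENSMUSG00000104213) positions 113406604 to 113416324. Ighg1 (ENSMUSG00000076614) occupies 113325240 to 113330523 and Ighe (ENSMUSG00000087642) 113269260 to 113273248. The point where the secreted and membrane forms part is shown for the 4 genes whose forms could be measured, in transcript orientation from the GENCODE vM21 transcripts. Lower case marks the last 30 bases that both forms share, and capitals mark what follows, up to the stop codon of the secreted form or over the first 60 coding bases of the membrane form.
Ighm secreted form: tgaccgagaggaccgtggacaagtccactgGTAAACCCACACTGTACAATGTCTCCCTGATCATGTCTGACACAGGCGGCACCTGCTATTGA
Ighm membrane form: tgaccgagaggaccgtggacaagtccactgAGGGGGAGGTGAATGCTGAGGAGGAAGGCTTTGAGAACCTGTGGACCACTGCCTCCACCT
Ighg1 secreted form: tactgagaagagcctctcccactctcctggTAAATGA
Ighg1 membrane form: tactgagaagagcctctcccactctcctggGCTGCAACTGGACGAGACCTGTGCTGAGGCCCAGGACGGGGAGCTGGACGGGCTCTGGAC
Ighe secreted form: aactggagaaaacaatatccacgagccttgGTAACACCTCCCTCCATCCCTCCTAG
Ighe membrane form: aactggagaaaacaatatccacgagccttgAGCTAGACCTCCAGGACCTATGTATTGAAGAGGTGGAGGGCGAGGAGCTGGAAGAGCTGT
Igha secreted form: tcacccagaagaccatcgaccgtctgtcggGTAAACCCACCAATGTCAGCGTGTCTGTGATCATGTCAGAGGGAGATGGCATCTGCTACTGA
Igha membrane form: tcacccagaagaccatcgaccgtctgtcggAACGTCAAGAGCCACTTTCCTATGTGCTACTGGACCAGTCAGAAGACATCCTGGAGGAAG

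The secreted tail of Ighg1 adds only 7 bases before the end of its stop codon, that of Ighe 26, and those of Ighm and Igha 62 each. The long tails of IgM and IgA are the ones that the joining chain binds in secreted polymers. The whole membrane transcript of Ighg1 is 2482 bases long against 1076 for the secreted one, while for Ighe the annotated lengths are 1460 and 1367.

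Reads from the 4 Ighg genes could be divided between genes by the authors' counting, since these genes resemble each other. The secreted transcripts of Ighg2b and Ighg2c were 86.3% identical, and other pairs of Ighg genes were 72.6% to 74.8% identical. The longest runs shared by any pair are printed here because a 76-base read inside them fits both genes; the first lies in the membrane transcripts and the second in both forms.
Ighg3 and Ighg2b: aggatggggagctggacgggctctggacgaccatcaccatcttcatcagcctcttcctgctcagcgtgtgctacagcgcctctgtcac
Ighg2b and Ighg2c: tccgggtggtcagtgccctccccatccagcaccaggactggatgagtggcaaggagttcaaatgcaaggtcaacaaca

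Counted over both forms, Ighg3 and Ighg2b shared 13 identical windows of 76 bases and Ighg2b and Ighg2c shared 4, and no other pair of members shared any. Within 2 mismatches, 262 of 1250 windows of Ighg2c and 264 of 2602 windows of Ighg2b matched another member, against 25 of 2516 for Ighg1 and 0 for Ighm, Ighd, Ighe and Igha. Fractional counts, which show that reads were divided between genes, occurred in 12 of 15 libraries for Ighg3, 13 for Ighg1, 10 for Ighg2b and 7 for Ighg2c, and in 0 for the other members. Near matches of Ighg2c were mostly to Ighg2b (252 windows), those of Ighg3 mostly to Ighg2b (80), and Ighg1 had 25 against Ighg3 and 7 against Ighg2b. The low values of Ighg3, Ighg2b and Ighg2c are therefore uncertain, and how many reads were divided was not measured.

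Library totals ran from 17.7 M counts (IgE iGC replicate 3) to 54.1 M. The labelled stages matched 2 sets of 6 markers each: summed TPM of the plasma cell set was 9837 to 10924 in IgE PC and 6330 to 7665 in IgG1 PC, against 318 to 679 in the iGC and D6 groups, and the B cell set was 1931 to 3234 in the PC groups against 3752 to 7525 in the others. Fibroblast feeder markers, 6 of 6 detected, summed to 137 to 184 TPM in D6, 25.1 to 37.7 in the iGC groups, 27.9 to 57.4 in IgG1 PC and 6.34 to 9.83 in IgE PC. T cell markers summed to 4.43 TPM at most and myeloid and mast cell markers to 3.14, with Cd3e at 0 in 4 of the 5 groups. Differences are log2 fold changes from edgeR's quasi-likelihood fit over all genes, called at a Benjamini-Hochberg adjusted p under 0.05. Levels are in TPM, a library-scaled measure which corrects for length and allows levels to be compared between genes. In these bulk libraries fewer cells expressing a gene and less RNA per cell cannot be told apart.

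Ighe and Ighg1, the 2 genes for which the cells were sorted, dominated their own groups and rose steeply in plasma cells. Ighe stood at 88665, 89129 and 95274 TPM in the 3 IgE PC libraries and at 7297, 7054 and 7566 in IgE iGC. In IgG1 cells it stood at 1352, 1171 and 1806 TPM in PC and at 382, 453 and 455 in iGC. The IgE libraries were thus above every IgG1 library at both stages, and within each isotype all PC libraries were above all iGC libraries. Between IgE PC and IgG1 PC the log2 fold change of Ighe was 6.13 (SE 0.15; edgeR adjusted p = 3.25e-12), and between the iGC groups it was 4.11 (SE 0.14; 2.79e-10).

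Ighg1 mirrored this. Its level was 97848, 75573 and 80352 TPM in IgG1 PC and 4925, 4749 and 4748 in IgG1 iGC. In IgE cells it was 1243, 1377 and 1357 TPM in PC and 624, 778 and 713 in iGC. No group overlapped another. The log2 fold change between IgE PC and IgG1 PC was -5.55 (SE 0.16; edgeR adjusted p = 1.17e-11), and between the iGC groups it was -2.75 (SE 0.14; 3.37e-08).

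**Figure D1:**
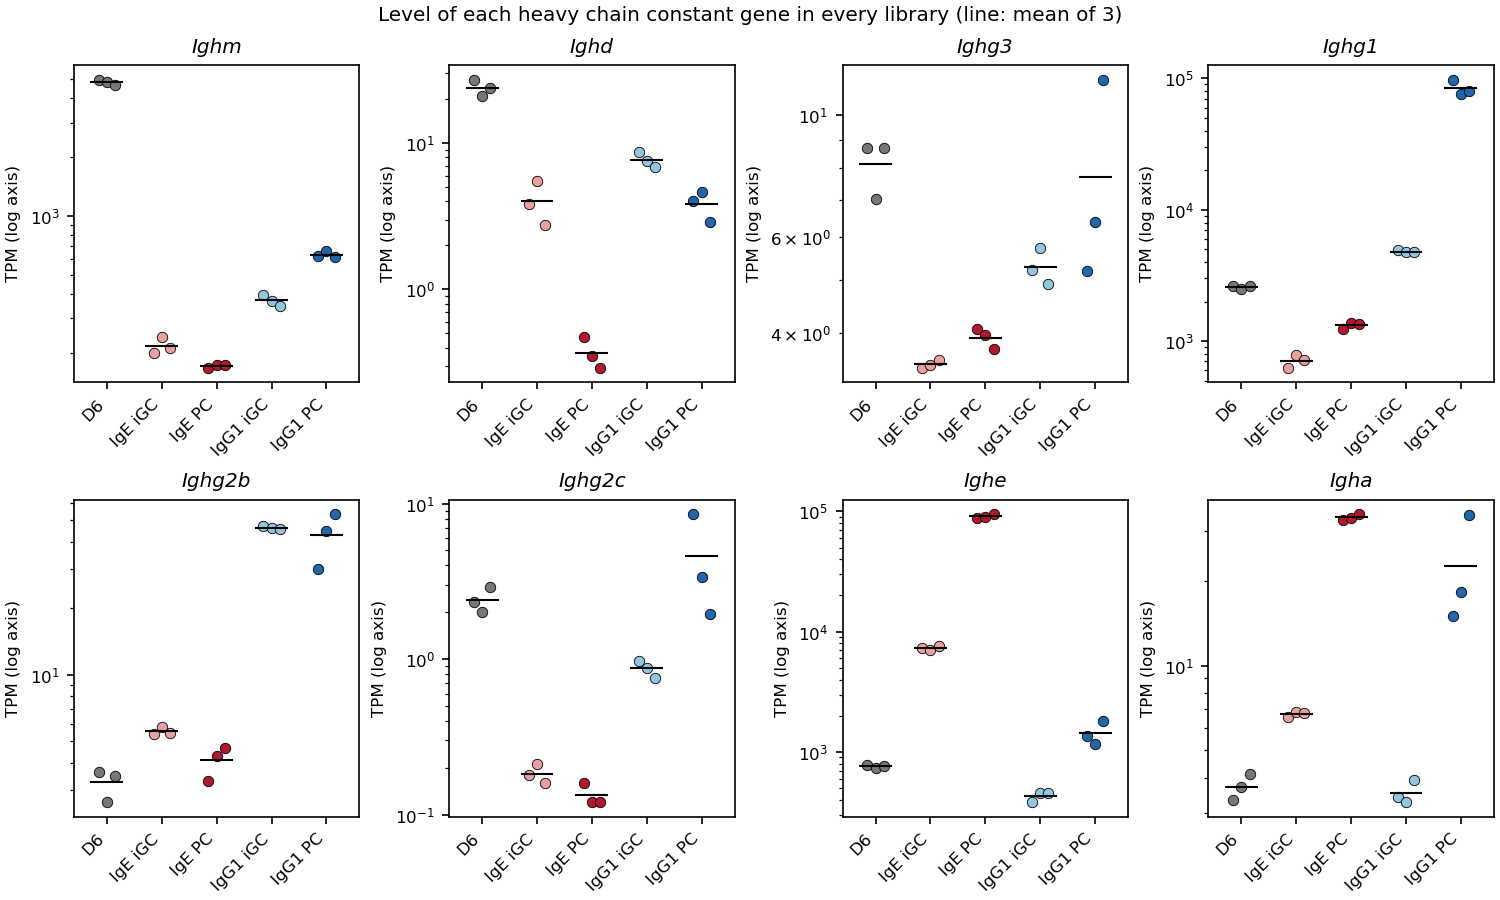
TPM of each of the 8 genes on log axes of differing range, with 1 point per library and a line at the mean of the 3 libraries of a group. Ighe and Ighg1 reach means of 91023 and 84591 TPM in the plasma cells of their own isotype, while Ighm is highest at D6 with a mean of 4846 TPM.

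Together the 8 genes took up 10.03% ± 0.484 of each IgE PC library's counts on average and 8.18% ± 1.66 of each IgG1 PC library's, but only 0.787% ± 0.0181 in IgE iGC, 0.767% ± 0.0109 in IgG1 iGC and 0.865% ± 0.0244 in D6 (SD, n = 3 each). IgG1 PC replicate 1, at 10.1%, stood above its fellows at 6.91% and 7.57%. Among the 8 genes the selected isotype took a larger share in plasma cells than in iGC cells. Ighe made up 98.3% ± 0.0823 of the 8 genes' total in IgE PC and 83.9% ± 1.33 in IgE iGC, and Ighg1 made up 96.8% ± 0.615 in IgG1 PC and 88.9% ± 0.305 in IgG1 iGC. The shares of a library add up to the whole, so this rise left the opposite switched isotype a smaller share in plasma cells. That fall is therefore not a separate result. Ighg1 made up 12.8% ± 1.00 in IgE iGC and 1.43% ± 0.0753 in IgE PC, and Ighe made up 5.06% ± 0.544 in IgG1 iGC and 2.09% ± 0.535 in IgG1 PC. None of these shares overlapped between the groups compared. An exact two-sided permutation test gave p = 0.1 for each, the smallest that 3 against 3 libraries allow (adjusted over the 36 shares and ratios tested by Benjamini-Hochberg, 0.116).

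**Figure D2:**
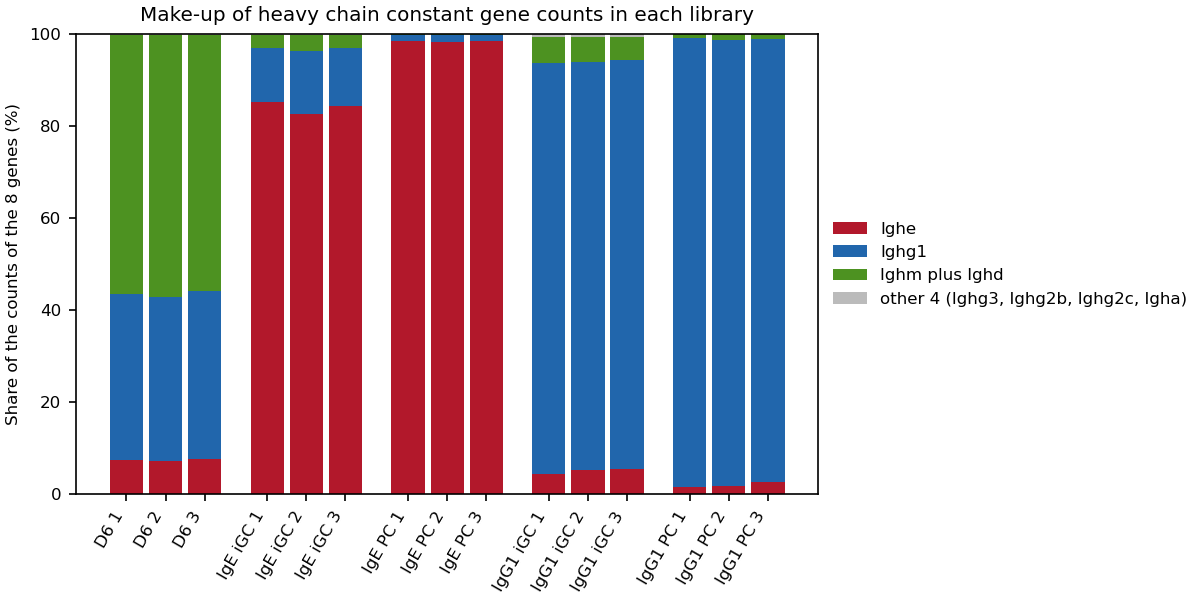
Stacked bars of the share of the 8 genes' counts (%, from 0 to 100) in each of the 15 libraries, split into Ighe, Ighg1, Ighm plus Ighd, and the other 4 genes. Ighm plus Ighd hold 56.3% at D6 and 0.208% in IgE PC, and the bars of a group's 3 libraries are alike.

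In level, as opposed to share, the opposite isotype was higher in plasma cells. In IgE cells Ighg1 rose between iGC and PC with a log2 fold change of 0.98 (SE 0.13; edgeR adjusted p = 7.98e-06), while Ighe rose by 4.37 (SE 0.14; 6.65e-13). In IgG1 cells Ighe rose by 2.35 (SE 0.13; 7.46e-10), while Ighg1 rose by 3.79 (SE 0.14; 1.01e-11). The rise of each gene was larger in the cells sorted for it. A test of the difference between the 2 stage changes, IgE minus IgG1 and here called the interaction, gave 2.02 for Ighe (SE 0.18; edgeR adjusted p = 6.73e-07) and -2.80 for Ighg1 (SE 0.19; 7.62e-08).

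Ighm, which encodes the heavy chain of IgM and stands first in the locus, remained measurable in every sorted group. Its level at D6 was 4984, 4866 and 4687 TPM. In IgG1 cells it was 397, 366 and 348 TPM in iGC and 628, 660 and 616 in PC, so that every PC library was above every iGC library. In IgE cells it was 199, 241 and 212 TPM in iGC and 167, 173 and 172 in PC, with every PC library below every iGC library on this scale. Ighm was lower in IgE than in IgG1 cells by -1.75 in PC (SE 0.09; edgeR adjusted p = 7.43e-10) and by -0.75 in iGC (SE 0.09; 1.26e-04). From iGC to PC it rose in IgG1 cells by 1.29 (SE 0.09; edgeR adjusted p = 7.55e-09), and the interaction was -0.999 (SE 0.12; 1.54e-05). In IgE cells the change depended on the scale. It was 0.29 (SE 0.09; 0.00786) with TMM scaling, -0.18 with total-count scaling, which moved the all-gene median from -0.08 to -0.55, and -0.34 with limma on log2(TPM + 1). No direction is therefore given for Ighm in IgE cells.

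Ighd, the heavy chain of IgD, was the member that fell into plasma cells. It was at 27.2, 21.1 and 23.8 TPM in D6, at 8.73, 7.53 and 6.88 in IgG1 iGC, and at 3.81, 5.50 and 2.74 in IgE iGC. In plasma cells it was at 4.01, 4.66 and 2.87 TPM for IgG1 and at 0.47, 0.35 and 0.29 for IgE. IgE PC was below every other group, with 22, 11 and 16 counts per library, while IgE iGC and IgG1 PC overlapped. From iGC to PC the log2 fold change was -3.11 in IgE cells (SE 0.30; edgeR adjusted p = 1.96e-07) and -0.64 in IgG1 cells (SE 0.21; 0.0155), with an interaction of -2.47 (SE 0.37; 1.02e-04). The IgG1 call was lost without IgG1 iGC replicate 1 (-0.54, adjusted p = 0.0677) and without IgG1 PC replicate 3 (-0.48, 0.0748). Between the PC groups the difference was -3.34 (SE 0.29; edgeR adjusted p = 1.80e-07).

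Since Ighd and Ighm can come from a single primary transcript, their counts were also set against each other within each library. There were 5.80, 4.67 and 5.18 Ighd counts per 1000 Ighm counts in D6, 20.3, 25.4 and 14.3 in IgE iGC, and 23.6, 21.9 and 21.9 in IgG1 iGC. In plasma cells the numbers were 2.51, 1.32 and 2.01 for IgE and 6.07, 6.66 and 5.04 for IgG1. Both iGC groups therefore held relatively more Ighd than D6 did, although their Ighd level was lower, and the ratio dropped again in plasma cells, furthest in IgE. On the log2 scale the ratio of IgE PC differed from that of IgG1 PC by -1.65 and from that of IgE iGC by -3.37, and that of IgG1 PC differed from IgG1 iGC by -1.93. The groups did not overlap in any of these 3 (exact permutation p = 0.1 each), whereas the iGC groups overlapped (-0.20, exact permutation p = 0.5).

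Zfp318, a nuclear protein needed for the long transcript that reaches the Ighd exons, was ordered much as the ratio was among the sorted groups. It stood at 98.8, 95.9 and 96.3 CPM (library-scaled counts, by TMM) in IgE iGC and at 124, 111 and 106 in IgG1 iGC. In plasma cells it stood at 19.97, 17.6 and 15.9 CPM for IgE and at 29.95, 56.8 and 51.5 for IgG1, and D6 was at 52.9, 49.8 and 47.2. The PC groups did not overlap, and neither did the stages. The log2 fold change was -1.38 between IgE PC and IgG1 PC (edgeR adjusted p = 1.29e-05), -2.44 from iGC to PC in IgE cells (1.71e-08) and -1.29 in IgG1 cells (1.37e-05), with an interaction of -1.15 (0.00155). Whether Zfp318 takes part in the Ighd difference was not tested.

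**Figure D3:**
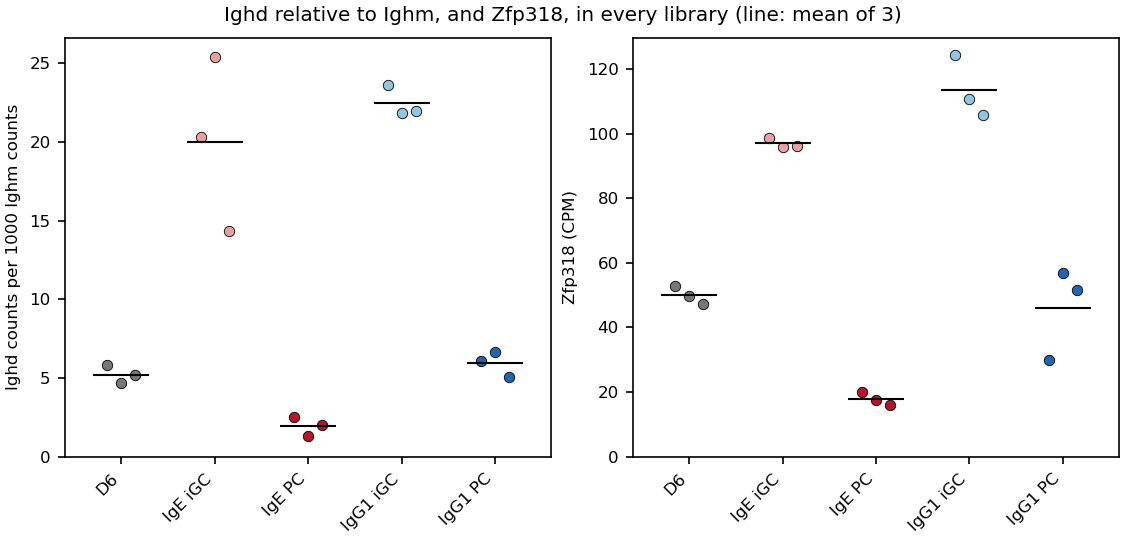
Ighd counts per 1000 Ighm counts (left) and Zfp318 in CPM (right), both on linear axes from 0, with 1 point per library and a line at the mean of 3. IgE PC is lowest in both, at means of 1.95 per 1000 and 17.8 CPM, and the iGC groups are highest.

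Of the remaining γ genes, Ighg2b was tied to the IgG1 groups. It was at 47.1, 46.2 and 45.5 TPM in IgG1 iGC and at 29.98, 44.7 and 53.5 in IgG1 PC, but at 5.41, 5.81 and 5.44 in IgE iGC, 3.32, 4.30 and 4.68 in IgE PC and 3.64, 2.65 and 3.49 in D6. All 6 IgG1 libraries were above all 9 others. The difference between isotypes was -3.37 in PC (SE 0.15; edgeR adjusted p = 3.27e-10) and -2.97 in iGC (SE 0.15; 3.37e-08). Ighg2b lies directly after Ighg1 in the locus. Per 1000 Ighg1 counts there were 6.45 ± 0.174 Ighg2b counts in IgG1 iGC and 0.621 ± 0.220 in IgG1 PC. The ratio was 5.51 ± 0.399 in IgE iGC, 2.65 ± 0.404 in IgE PC and 0.959 ± 0.168 in D6 (SD, n = 3 each). Whether the Ighg2b counts depend on Ighg1 was not tested. From iGC to PC it changed by -0.08 in IgE cells (SE 0.16, edgeR adjusted p = 0.711). With total-count scaling that change was -0.55 and was called (edgeR adjusted p = 0.0127). The interaction of -0.40 did not pass (edgeR adjusted p = 0.145), but did with total-count scaling (0.0324) and without IgG1 PC replicate 1 (0.0314). In IgG1 cells Ighg2b changed by 0.32 (SE 0.13, edgeR adjusted p = 0.0450). That IgG1 call was lost with DESeq2 (adjusted p = 0.0717), with total-count scaling, without the filter and on leaving out any of 5 libraries (IgG1 iGC replicates 1, 2 and 3, and IgG1 PC replicates 2 and 3; log2 fold change 0.20 without the last), and limma on log2(TPM + 1) gave -0.15.

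Ighg2c had the lowest mean TPM of the 8 genes in every group except IgG1 PC, where Ighd was lower. It was at 8.58, 3.36 and 1.96 TPM in IgG1 PC, 2.33, 2.01 and 2.90 in D6, 0.97, 0.88 and 0.76 in IgG1 iGC, 0.18, 0.21 and 0.16 in IgE iGC and 0.16, 0.12 and 0.12 in IgE PC. The IgE libraries held only 2 to 6 counts each, which limits what can be read from them. IgG1 PC varied widely and overlapped D6. The difference between IgE PC and IgG1 PC was -5.04 (SE 0.58; edgeR adjusted p = 3.04e-06) and the rise in IgG1 cells was 3.08 (SE 0.47; 5.39e-05). Both sizes lean on IgG1 PC replicate 1: without it they were -4.11 (3.05e-08) and 2.14 (6.54e-06), still called, and the interaction given next was -1.97 (0.00719). Between the iGC groups the difference of -2.14 did not pass the test (SE 0.66; 0.0976), but did with DESeq2 (0.0196) and with only the iGC libraries in the fit (0.00446). The interaction of -2.90 passed (SE 0.99, edgeR adjusted p = 0.0277) but not without the filter (0.0572). It also did not pass without IgE iGC replicate 1 (0.0873) or 2 (0.0772), or without IgE PC replicate 2 (0.0557) or 3 (0.0558).

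Ighg3 varied least across the groups. Its means were 8.15 ± 0.970 TPM in D6, 7.72 ± 3.41 in IgG1 PC, 5.29 ± 0.405 in IgG1 iGC, 3.93 ± 0.171 in IgE PC and 3.52 ± 0.0603 in IgE iGC (SD, n = 3 each). D6, IgG1 PC and IgG1 iGC overlapped their neighbours in this order, and IgG1 PC replicate 3, at 11.6 TPM, was well above replicates 1 and 2 at 5.19 and 6.38. It was lower in IgE PC than in IgG1 PC by -0.80 (SE 0.18; edgeR adjusted p = 0.00136), and the iGC difference of -0.58 did not pass (SE 0.19; 0.130). It rose from iGC to PC by 0.67 in IgE cells (SE 0.19; edgeR adjusted p = 0.00654) and by 0.89 in IgG1 cells (SE 0.18; 5.60e-04), and the IgE rise was not called with total-count scaling (log2 fold change 0.20) or with limma on log2(TPM + 1) (0.13), nor the IgG1 rise with the latter (adjusted p = 0.0661).

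Igha, which lies last in the locus and encodes the heavy chain of IgA, was low everywhere but rose in plasma cells of both isotypes. It was at 32.9, 33.4 and 34.6 TPM in IgE PC and 6.57, 6.86 and 6.78 in IgE iGC. In IgG1 cells it was at 14.97, 18.2 and 34.4 TPM in PC and 3.40, 3.27 and 3.93 in iGC, with 3.33, 3.70 and 4.12 in D6. IgG1 PC replicate 3 was as high as IgE PC, so the PC groups overlapped in TPM. The rise from iGC to PC was 2.52 in IgE cells (SE 0.15, edgeR adjusted p = 8.51e-10) and 2.52 in IgG1 cells (SE 0.16, 3.19e-09). The interaction was 0.0011 (edgeR adjusted p = 0.999974). Igha and Ighe were the only members higher in IgE PC than in IgG1 PC, Igha by 0.69 (SE 0.14; 5.80e-04). Between the iGC groups the difference was also 0.69 (SE 0.16; 0.0254), but that call, like the one of Ighd there (-0.88, SE 0.21; 0.0303), was lost without the filter and on leaving out iGC libraries, with adjusted p-values of 0.0527 to 0.121 for Igha without any 1 of the 6. For Ighd the call was lost without any of 5 of them, at 0.0640 to 0.146; leaving out IgE iGC replicate 2 was the exception.

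The counts of members that passed were read against all genes. Between IgE PC and IgG1 PC 8 of 8 were called, 2 higher and 6 lower in IgE, where 58.1% of all genes tested were called (27.4% higher, 4303 genes, and 30.7% lower, 4816; 2272 and 7265 with total-count scaling). The summed feeder markers differed in the same direction as the 6 lower members, at 6.34 to 9.83 TPM in IgE PC and 27.9 to 57.4 in IgG1 PC, and their part was not tested. Between the iGC groups 6 of 8 were called, 2 higher and 4 lower, against 3.87% of all genes (1.99% higher and 1.88% lower). Of those 6 calls, 2 are the selected isotypes and 2 are the less stable ones of Ighd and Igha. From iGC to PC 6 of 8 were called in IgE cells, 5 higher and 1 lower, against 64.1% of all genes (30.5% higher, 4788, and 33.6% lower, 5270; 2651 and 8743 with total-count scaling). In IgG1 cells 8 of 8 were called, 7 higher and 1 lower, against 59.1% (30.1% higher, 4720, and 29.0% lower, 4553; 3226 and 6840 with total-count scaling). The interaction called 5 of 8, 1 higher and 4 lower, against 42.9% (19.8% higher, 3101, and 23.1% lower, 3632; 1542 and 5603 with total-count scaling). The median log2 fold change of the members was -2.55, -0.81, 0.48, 1.82 and -0.70 in these 5 comparisons, in that order, and that of all genes was -0.05, 0.01, -0.08, 0.01 and -0.06. With total-count scaling the all-gene median became -0.30 between the PC groups, -0.22 from iGC to PC in IgG1 cells and -0.30 for the interaction. Except between the iGC groups, so many genes were called that the share of members called is not by itself a result about them.

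**Figure D4:**
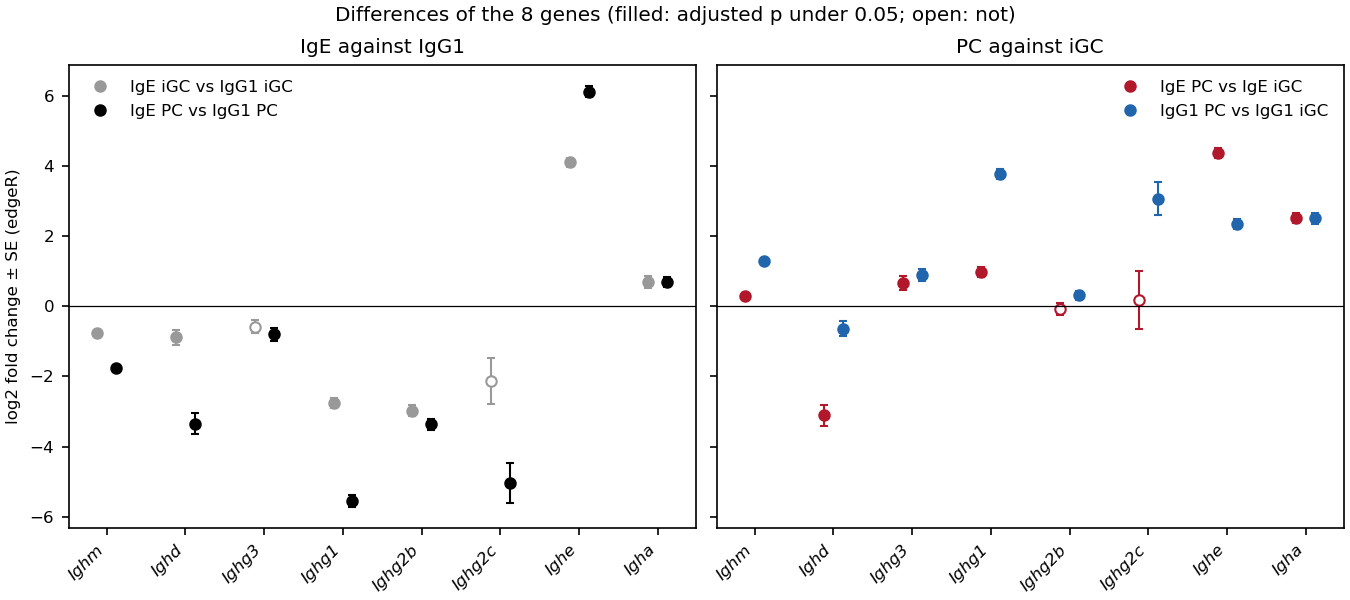
Log2 fold change with its standard error (edgeR) for each of the 8 genes, IgE against IgG1 at each stage (left) and PC against iGC in each isotype (right); filled points have an adjusted p under 0.05. On the left Ighe (6.13 and 4.11) and Igha lie above 0 and the other 6 below it, and on the right Ighd (-3.11 and -0.64) lies below 0 in both isotypes.

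Secreted and membrane forms were separated from the ratio of the deposited counts to TPM, which gives the mean transcript length that RSEM assigned to a gene in a library. On genes with a single annotated transcript this length fell within 1% of the annotated one for at least 92.5% of genes in every library. Shares are given for the 4 members with at least 100 counts in every library and with bounds no wider than 20 percentage points, and they rest on RSEM's own division of reads between forms. Ighe has a membrane transcript that is only 93 bases longer than the secreted one, against 1406 for Ighg1, so shares are compared within a gene and not between genes. For Ighe a length error of 1% would move the share by more than any Ighe share given below. The bounds leave out the single-transcript genes that were furthest off, so the Ighe shares are the least certain of the 4.

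The membrane form of Ighm made up a smaller share of the gene in plasma cells than in iGC cells. It was 71.2%, 67.3% and 69.9% of the gene's TPM in IgE iGC and 68.5%, 71.1% and 68.8% in IgG1 iGC, against 19.3%, 20.03% and 19.0% in IgE PC and 18.2%, 20.3% and 23.1% in IgG1 PC. Stage and not isotype separated the Ighm values: PC and iGC did not overlap (exact permutation p = 0.1), while the isotypes overlapped at both stages (differences of -1.10 points in PC, exact permutation p = 0.6, and -0.013 points in iGC, p = 1.0). In D6 the share was 56.0%, 53.3% and 53.4%, below the iGC groups.

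For Ighg1 the 2 plasma cell groups parted. The membrane form was 73.4%, 75.4% and 74.7% in IgG1 iGC and 78.9%, 69.3% and 76.5% in IgE iGC, which overlapped (difference 0.44 points, exact permutation p = 0.9). In plasma cells it was 2.09%, 3.12% and 2.79% in IgG1 PC but 22.0%, 20.7% and 19.1% in IgE PC, a difference of 17.9 points with no overlap (exact permutation p = 0.1, the smallest possible). In TPM the secreted form of Ighg1 went from 1228 ± 73.9 in IgG1 iGC to 82375 ± 11886 in IgG1 PC, while the membrane form went from 3580 ± 33.9 to 2216 ± 161 (SD, n = 3 each). In IgE cells the secreted form went from 179 ± 54.5 to 1053 ± 72.7 TPM and the membrane form from 526 ± 28.9 to 272 ± 12.8. The forms were measured in TPM only, which is scaled to the library total. Total-count scaling of the counts moved the all-gene median from iGC to PC to -0.55 in IgE and -0.22 in IgG1 cells. No direction is therefore given for the level of the membrane form of Ighg1. The mean membrane share of Ighg1 was 20.6% ± 1.46 in IgE PC and 2.67% ± 0.530 in IgG1 PC.

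For Ighe the membrane form was a small share in every group, as far as the short length difference between its forms can resolve it. Its membrane form was 2.95%, 2.87% and 2.64% in IgE PC and 10.02%, 10.3% and 10.3% in IgE iGC, against 8.09%, 8.80% and 6.63% in IgG1 PC and 13.1%, 11.2% and 13.2% in IgG1 iGC. The difference between IgE and IgG1 cells was -5.02 points in PC and -2.29 points in iGC (exact permutation p = 0.1 each, with no overlap of the library values). In iGC the bounds from rounding and calibration did overlap, at 9.52% to 11.8% for IgE and 10.7% to 13.7% for IgG1, so that difference is not resolved beyond them. In PC they did not, at 2.20% to 4.14% and 6.12% to 9.25%. The membrane form of Ighe, which anchors the IgE B cell receptor, was put at 746 ± 27.4 TPM in IgE iGC and 2562 ± 52.8 in IgE PC. The secreted form went from 6560 ± 232 to 88461 ± 3734 (SD, n = 3 each). In IgE PC the implied lengths of Ighe were 1369.75, 1369.67 and 1369.45 bases, against 1367 for the secreted form. The membrane level there rests on these few bases and on TPM only, so no direction is given for it. Igha was 65.6%, 63.0% and 65.9% membrane form in IgE iGC and 91.7%, 92.8% and 91.0% in IgG1 iGC, a difference of -27.0 points without overlap (exact permutation p = 0.1). In PC it was 23.3%, 21.7% and 22.1% for IgE and 38.4%, 31.5% and 18.1% for IgG1, which overlapped (exact permutation p = 0.4).

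**Figure D5:**
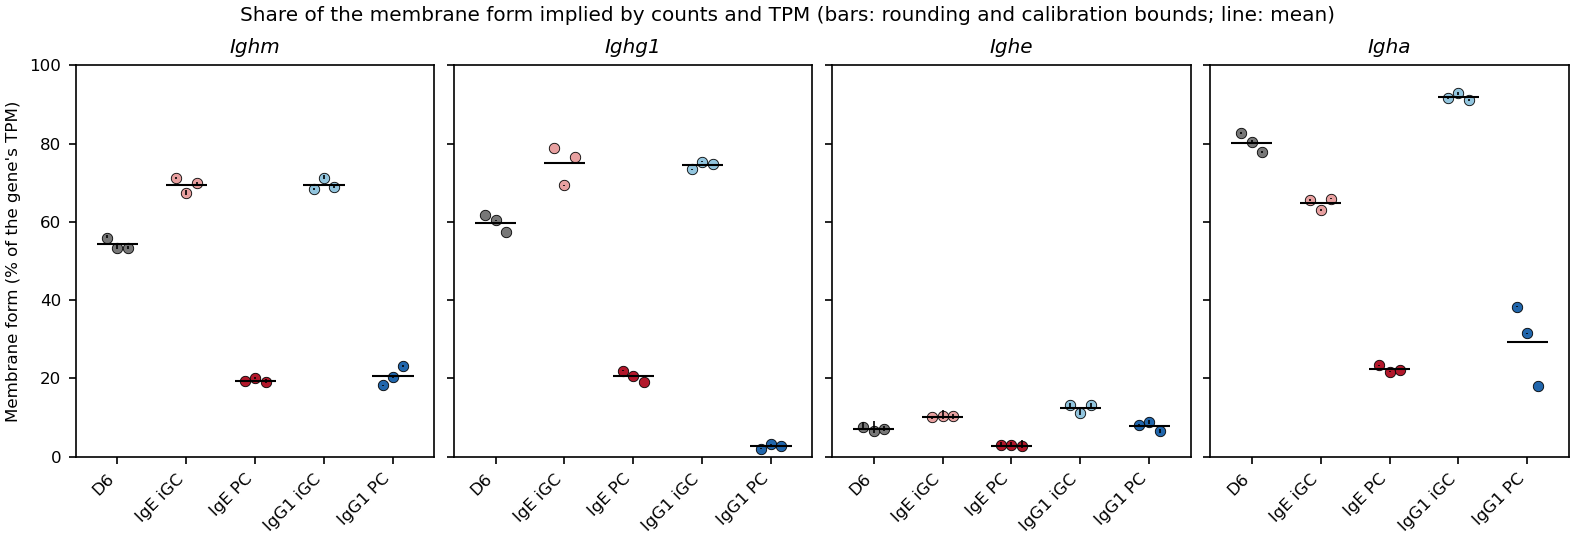
Membrane form as a percentage of each gene's TPM (0 to 100) in every library for Ighm, Ighg1, Ighe and Igha, with the bounds from rounding and calibration as bars and the group mean as a line. Every PC group lies below the iGC group of its isotype, and Ighg1 in IgG1 PC, at 2.67%, lies below Ighg1 in IgE PC, at 20.6%.

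Factors of heavy chain RNA processing were counted from a list of 6, which holds Zfp318, described above for Ighd, beside 5 others. From iGC to PC 3 rose and 2 fell in IgE cells, where 30.5% and 33.6% of all genes did, and 2 rose and 4 fell in IgG1 cells, where 30.1% and 29.0% did. Zfp318 is among the falls in both. Ell2, an elongation factor that favours the secretory polyadenylation site, rose by 3.06 in IgE cells (edgeR adjusted p = 2.06e-14) and by 2.49 in IgG1 cells (1.71e-13). It was at 674, 634 and 735 CPM in IgE PC and at 420, 434 and 387 in IgG1 PC, without overlap. Hnrnpll, an RNA-binding protein induced in plasma cells, rose by 4.01 (4.10e-11) and 3.92 (2.04e-10). Cstf2, a subunit of the cleavage stimulation factor, fell by 0.81 (7.06e-08) and by 0.67 (1.16e-06) on the log2 scale. Between IgE PC and IgG1 PC 4 of the 6 were higher in IgE, Ell2 by 0.72 (2.01e-07), and the 2 lower were Zfp318 and Cstf2 (-0.18, 0.0453). In that comparison 27.4% of all genes were higher and 30.7% lower. Between the iGC groups 0 of 6 were called by edgeR, where 3.87% of all genes were called.

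The genes listed as partners of heavy chains followed the stage to differing degrees. All 6 light chain and joining chain partners rose from iGC to PC in both isotypes, as 30.5% and 30.1% of all genes did, with median log2 fold changes of 2.91 and 2.82 against -0.08 and 0.01 over all genes. Igkc, the κ light chain constant gene, rose by 4.23 in IgE cells (edgeR adjusted p = 2.43e-12) and by 4.12 in IgG1 cells (7.51e-12). Jchain, the joining chain, was also higher in IgE than in IgG1 cells at both stages, by 1.42 in iGC (2.82e-04) and 0.82 in PC (9.50e-04). Of the 2 signalling partners of membrane immunoglobulin, Cd79a fell in IgE plasma cells by 0.80 on the log2 scale (2.47e-07) and changed by -0.04 in IgG1 cells (0.706), with an interaction of -0.76 (7.39e-05). Cd79b fell in both, by 0.44 (9.18e-05) and by 0.35 (9.97e-04).

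Among 16 class switching genes, of which 15 were tested, 8 fell and 2 rose from iGC to PC in IgE cells, and 7 fell and 4 rose in IgG1 cells. Of all genes 64.1% were called in IgE cells (33.6% lower and 30.5% higher) and 59.1% in IgG1 cells (29.0% lower and 30.1% higher). With total-count scaling 8743 and 6840 genes were lower. So many genes were called that these counts are not by themselves a result about the list. Between the iGC groups 0 of the 15 were called by edgeR, where 3.87% of all genes were called. The 10 transcription factors of the locus split 5 up and 5 down in both isotypes, all called, against the same 64.1% and 59.1%, with Irf4, Prdm1 and Xbp1 of the plasma cell programme up (Irf4 by 4.49 in IgE and 3.86 in IgG1 cells; adjusted p = 3.28e-15 and 1.75e-14) and Pax5 and Ebf1 of the B cell programme down (Ebf1 by -2.23 and -1.41; 3.90e-11 and 1.53e-08). Of 8 genes of the IL-4 route and its modifiers 6 fell and 1 rose in IgE cells, against 5 and 1 in IgG1 cells, where 33.6% and 29.0% of all genes fell (8743 and 6840 genes with total-count scaling). The 3 antibody receptor genes tested of 4, Fcer2a, Fcgr2b and Fcmr, fell in both, where 33.6% and 29.0% of all genes fell. Their median log2 fold changes were -2.10 and -0.87, against -0.08 and 0.01 over all genes.

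Set against D6, Ighm was lower in all 4 sorted groups. The log2 fold change of Ighm was -4.30 in IgE iGC, -3.55 in IgG1 iGC, -4.01 in IgE PC and -2.26 in IgG1 PC, with SEs of 0.0903 to 0.0989. D6 is unsorted, so its Ighm includes cells that had not switched, and these comparisons join a change of time, feeder cells and sorting that cannot be told apart; the summed feeder markers were also lower in the sorted groups, and their part was not tested. In D6 Ighm plus Ighd made up 56.3% ± 0.702 of the 8 genes' counts, Ighg1 36.0% ± 0.512 and Ighe 7.46% ± 0.177 (SD, n = 3 each). Ighg2b was the γ gene above D6 in all 4 sorted groups, by 0.95 and 0.87 in IgE iGC and PC and by 3.92 and 4.24 in IgG1 iGC and PC, though the IgE PC call was lost with total-count scaling (0.34) and with limma on log2(TPM + 1) (0.26). In IgE iGC 8 of 8 members were called, 3 higher and 5 lower, against 69.1% of all genes (32.8% higher and 36.3% lower). In IgG1 iGC 6 were called, 2 higher and 4 lower, against 68.4% (32.4% and 36.0%). In IgE PC 7 were called, 3 higher and 4 lower, against 76.4% (36.9% and 39.5%; 3311 genes higher and 9032 lower with total-count scaling). In IgG1 PC 8 were called, 6 higher and 2 lower, against 71.9% (35.9% and 36.0%; 3964 and 7370 with total-count scaling), although the Ighg3 call there was lost without D6 replicate 2 (0.44, adjusted p = 0.0666) and without IgG1 PC replicate 3 (0.21, 0.133). The Ighg2c call in IgG1 iGC was likewise lost without D6 replicate 3 or IgG1 iGC replicate 2 or 3 (adjusted p of 0.0532 to 0.0665). The 4 comparisons share the D6 libraries, so they are given side by side only.

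Genes with the closest profile to each member over the 15 libraries, up to 3 a member, were found among 8975 genes, by Pearson correlation of log2 CPM, as a description without a test. Ighm was closest to Bmp1 (0.993), Rxra (0.988) and Zyx (0.983), and Ighd to Clstn1 (0.990), Phb (0.982) and Nudc (0.981). Genes close to Ighe included Hdac9 (0.978) and Trak2 (0.961). Ighg1 was less closely matched, by AU020206 (0.948), Ddt (0.934) and Gstt3 (0.895), and Ddt also led for Ighg2c (0.940), before Etfb (0.923) and Gstp1 (0.906). Ighg2b was closest to Adam19 (0.919), Ada (0.901) and Sephs2 (0.872), Igha to Chac1 (0.989), St14 (0.987) and Cradd (0.987), and Ighg3 to Mfsd12 (0.864), Etv6 (0.857) and Prrc2a (0.856). The libraries fall into 5 groups, so these values mostly compare the order of group levels.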

How the data were processed

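Polyadenylated RNA from 15 libraries was sequenced as single-end, strand-specific 76-base reads, per the labels' protocols. The submitters' processing notes list cutadapt 1.9.1, STAR 2.5.2a, RSEM 1.3.0, DESeq2 1.12.3 and the build GRCm38; the annotation is not given in the sources used here. The deposited table holds RSEM expected counts, which divide reads between similar genes, and TPM values that the authors scaled for length and library total. Symbols were matched for 51633 of 51912 genes, and 0 columns were unmapped. The rule for the members uses gene symbols only, but the members, gene lists and tests were chosen with earlier results of these data known.

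Expected counts were rounded, filtered with filterByExpr (minimum count 10; 15692 genes left), scaled by TMM and fitted with 1 mean per group over all 15 libraries in edgeR 4.0.16 (quasi-likelihood, robust; Benjamini-Hochberg over all genes). Self-tests on simulated counts were run. Standard errors are approximate. The genes named are the 8 members, the 3 genes most correlated with each and, per list and comparison, up to 4 called genes with the smallest p-values, each then given in every comparison described. Shares and ratios were compared by exact two-sided permutation tests, adjusted by Benjamini-Hochberg with scipy 1.17.1. Transcripts and coordinates came from GENCODE vM21 (GRCm38). The membrane form measure, from counts divided by TPM, was added after the data were seen. It was calibrated in each library on 88 to 136 genes of 1 transcript, with at least 200 counts and 20 TPM, and its bounds cover TPM rounding and calibration, not counting error. Alternatives were DESeq2 1.42.0, total-count scaling, scaling without immunoglobulin genes, no filter, only the groups compared, rounding down, summed Ighg genes, limma 3.58.1 on log2(TPM + 1), a replicate block and leaving out each library. Promoter and protein sequences of the members were not used here. A few genes that the naming rule would give are not reported here.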

Additional observations from a re-analysis of the deposited data

Results flagged for a closer look

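For 5 of the 8 genes IgE and IgG1 cells differed in the size of the step from iGC to PC, by a direct test of the difference (edgeR interaction, Benjamini-Hochberg adjusted over 15692 genes), where 42.9% of all genes passed. The interaction was -0.999 for Ighm, which rose in IgG1 plasma cells and had no stable direction in IgE cells. It was -2.47 for Ighd, which fell further in IgE cells. It was -2.80 for Ighg1 and 2.02 for Ighe, each of which rose more in the cells sorted for it. Since the cells were sorted by these 2 isotypes, their interactions are not independent of the selection. For Ighg2c it was -2.90, from 2 to 6 counts per IgE library. That call was lost without the filter, without IgE iGC replicate 1 or 2, and without IgE PC replicate 2 or 3. Without IgG1 PC replicate 1 it was -1.97.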

How the results depend on the processing

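Over the alternatives run, all 123 counts of members called stayed within 1.5 times the main count, a wide margin for counts of at most 8. Between the iGC groups the count of members, 6 in the main fit, ran from 4 without the filter to 8 with only those groups fitted. Of 1028 member fold changes 958 kept direction and side of the threshold, 42 lost the call, 10 gained it and 18 reversed. The genes called between the iGC groups, 607 in all, became 922 with DESeq2, 1503 with only those groups fitted, 400 with limma on log2(TPM + 1) and 323 to 403 on leaving out a library; the interaction called 6733 genes and 4277 with limma. Summing the Ighg genes gives no counts of members called and no values for Ighg2b, Ighg2c and Ighg3.

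Reversals under limma on log2(TPM + 1) were Ighm (-0.34) and Ighg2c (-0.0623) in IgE PC against iGC, Ighg2b in IgG1 PC against iGC (-0.15), the Igha interaction (-0.13), Igha in IgG1 iGC against D6 (-0.0566) and Ighg3 in IgG1 PC against D6 (-0.13). Total-count scaling reversed Ighm (-0.18) and Ighg2c (-0.28) in IgE PC against iGC and the Igha interaction (-0.24). That interaction was also -0.0050 without the filter, -0.0117 with only the groups compared and -0.144 to 0.262 on leaving out a library. Leaving out a library gave -0.21 to 0.0732 for Ighg2b in IgE PC against iGC (above 0 without IgE PC replicate 1), -0.40 to 0.0921 for the Ighg3 interaction (above 0 without IgG1 PC replicate 3) and -0.396 to 0.0167 for the log2 Ighd to Ighm ratio between the iGC groups. Membrane form differences spanned -2.25 to 0.193 points for Ighm in PC, -0.867 to 1.07 for Ighm in iGC and -1.57 to 3.24 for Ighg1 in iGC. Of the reversed results, Ighm in IgE PC against iGC, Ighg2b in IgG1 PC against iGC and Ighg3 in IgG1 PC against D6 were called as reported; the cause was not tested.

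The labels do not say that replicate numbers pair libraries. Same-numbered libraries deviated together at a mean correlation of -0.0146 over all pairs of groups, not every library correlated best with its own number, and a replicate block gave 9005, 580, 9950, 9152 and 6533 genes in the first 5 comparisons. Depth limits Ighd and Ighg2c in IgE cells.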
